A study of Mus musculus with 6 samples.

Results

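The Bcl2 family decides at the mitochondrial outer membrane whether a cell starts apoptosis. This account follows 9 of its genes, picked by name from the 34745 genes of the deposited table, and all 9 had enough counts to be tested. They comprise the anti-apoptotic genes Bcl2, Bcl2l1 and Mcl1, the effectors Bax and Bak1, and the BH3-only genes Bcl2l11, Bid, Bad and Bbc3. The effector proteins form the pores through which cytochrome c leaves the mitochondria. Anti-apoptotic proteins hold the effectors in check, and BH3-only proteins, which carry death signals, bind the anti-apoptotic proteins or engage the effectors directly. In the prostate, where the secretory epithelium is known to enter apoptosis when androgen is withdrawn, the family is best known through Bcl2, which marks basal cells and hormone-independent growth.

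RNA-seq was performed on prostates of 6 male C57BL/6 mice, young adults when the experiment began. In the T + E2 group, 3 mice carried a subcutaneous slow-release pellet with testosterone and oestradiol for 12 weeks, and each pellet was exchanged every month. In the CON group, 3 mice had the skin of the back cut and closed with no pellet placed. The comparison asks how an excess of both hormones, used as a model of benign prostatic hyperplasia, changes the prostate transcriptome. The 6 mice were kept apart for sequencing, so that none of their tissue was examined histologically, and which lobes were taken was not stated. Castration is not described for either group.

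Reads counted on genes ranged from 14816146 to 16555549 in a mouse, and levels are given as CPM (counts scaled to a common library size) after TMM normalisation, a correction for differences in library composition. At this depth 3 counts amount to 0.183 to 0.208 CPM. The prostate marker Hoxb13 was present in every mouse, with a mean of 461.2 CPM in the CON group. RNA of the neighbouring seminal vesicle was found in 2 mice: Svs5, a seminal vesicle secretory gene, reached 5042 CPM in CON 2 and 109.5 CPM in T + E2 2, against at most 1.13 CPM in the other 4 mice. The number of the 9 genes that passed is therefore given with and without these 2 mice, and so are values of some single genes. CON 2 also had the most RNA of the fat gene Adipoq, at 47.4 CPM against 4.14 to 12.3 CPM in the other mice. The muscle gene Ckm reached 33.0 CPM in CON 2 and 28.8 CPM in T + E2 3, against 3.71 to 15.5 CPM in the rest. In tissue RNA, fewer cells of a type and less RNA per cell cannot be told apart.

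Of the 9 genes, 1 was upregulated and 1 was downregulated by T + E2 at an adjusted p under 0.05 (quasi-likelihood test of edgeR, Benjamini-Hochberg adjustment over all genes tested). Bax rose by 39.2% and Bbc3 fell by 50.2%, while the 3 anti-apoptotic genes did not pass the test. The 2 calls amount to 22.2% of the 9 genes, beside 19.6% of all 15580 genes tested, of which 10.4% were higher and 9.25% lower. In 4 of the 9 genes (Bax, Bid, Bcl2l11 and Bbc3) CON and T + E2 mice did not overlap, as was the case for 40.7% of all genes tested. The median log2 fold change over the 9 genes was -0.04, beside -0.002 over all genes tested. Without the 2 mice with seminal vesicle RNA, which leaves 2 mice in each group, none of the 9 genes passed at the adjusted threshold in edgeR. In that fit 3 of them, Bbc3, Bax and Bcl2l11, had an unadjusted p under 0.05, as had 24.5% of all genes tested. DESeq2 called the same 3, beside 3240 of all 15646 genes tested.

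**Figure D1:**
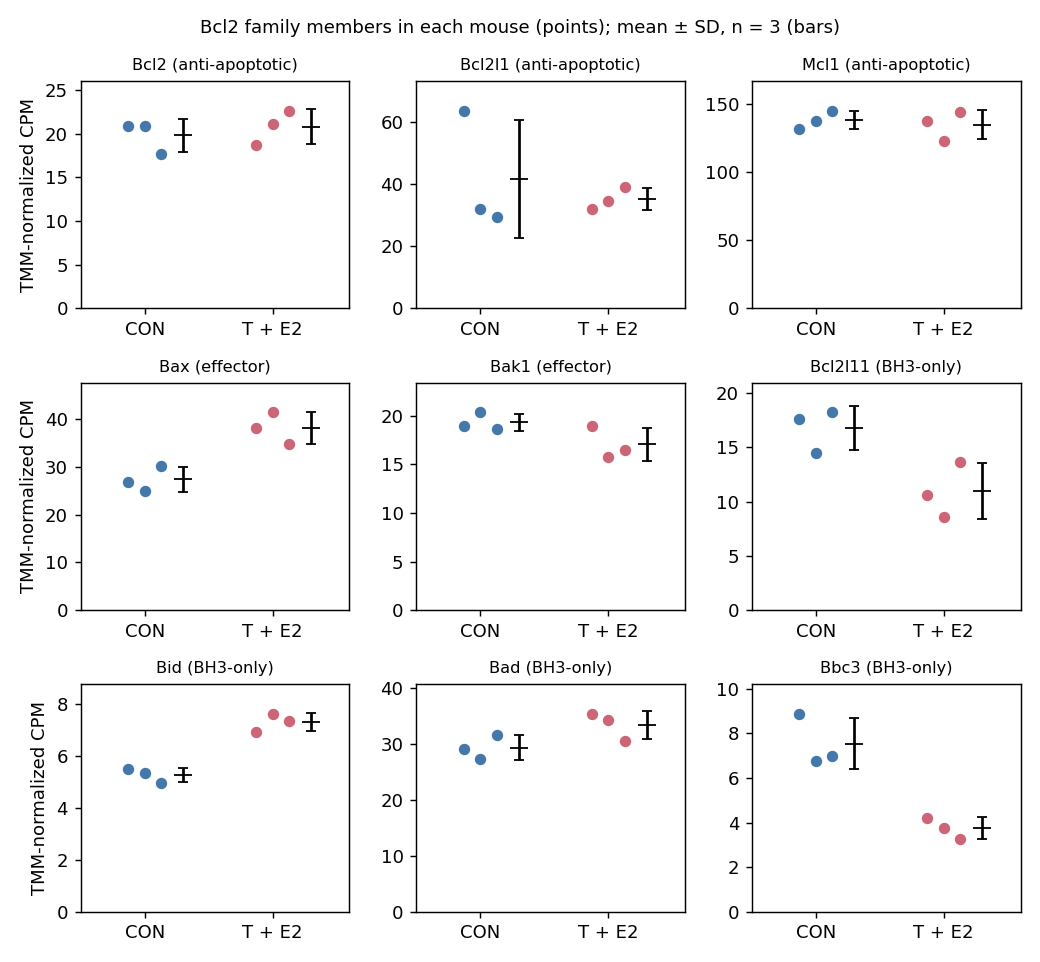
TMM-normalised CPM of the 9 Bcl2 family genes (vertical axis, linear, from 0) in each of the 3 CON and 3 T + E2 mice (points), with the group mean ± SD beside them. Bax and Bid lie higher and Bcl2l11 and Bbc3 lower in all 3 T + E2 mice than in any CON mouse, whereas Bcl2, Bcl2l1, Mcl1, Bak1 and Bad overlap.

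Bbc3, which encodes Puma, a BH3-only protein made in response to p53 and to loss of survival signals, showed the largest change of the 9 genes. The gene lies at chr7:16309616-16318205 in the deposited table, whose coordinates follow build GRCm38. It measured 8.87, 6.77 and 6.98 CPM in controls, against 4.22, 3.78 and 3.27 CPM after T + E2. The lowest CON mouse lay above the highest T + E2 mouse, and the group means were 7.54 ± 1.16 and 3.75 ± 0.475 CPM (SD, n = 3). The log2 fold change was -1.0 with an SE of 0.20 and an adjusted p of 0.0103, a level 2.01-fold lower after T + E2. Bbc3 was the only one of the 9 genes that also passed the study's fold threshold, an absolute log2 fold change over 1, which 7.64% of all genes tested passed together with the adjusted p. These values rest on 49 to 134 counts a mouse. The adjusted p of Bbc3 stayed under 0.05 when any single mouse was left out, but the fold threshold was missed without CON 1, at -0.87, and without T + E2 3, at -0.92. Without CON 2 and T + E2 2 the log2 fold change was -1.08 at an adjusted p of 0.0657.

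Bax, the effector that moves from the cytosol to the mitochondria, changed in the opposite direction. Its gene lies at chr7:45461695-45466898. Bax reached 26.8, 25 and 30.3 CPM in CON mice versus 38.1, 41.5 and 34.8 CPM in T + E2 mice. All 3 T + E2 mice exceeded the highest CON mouse, with group means of 27.4 ± 2.68 and 38.1 ± 3.35 CPM (SD, n = 3). The log2 fold change was 0.48 with an SE of 0.11 and an adjusted p of 0.0209, and its 95% interval ran from 0.22 to 0.73. This call was less stable than that of Bbc3: it was lost without CON 1, CON 2, T + E2 1 or T + E2 2, with adjusted p-values up to 0.0717 and log2 fold changes between 0.41 and 0.56 when 1 mouse was left out. Without both mice with seminal vesicle RNA, the log2 fold change of Bax was 0.35 at an adjusted p of 0.168. Bax shares 12.2% of its exon bases with Gm45808 on the same strand, a gene without values here. Bak1 (chr17:27019810-27029009), the effector that resides in the outer membrane, measured 18.9, 20.4 and 18.7 CPM in CON and 19.0, 15.8 and 16.5 CPM in T + E2 mice. The Bak1 groups overlapped, and its log2 fold change was -0.18 with an SE of 0.11 and an adjusted p of 0.301. Bak1 shares 18.2% of its exon bases with Ggnbp1 on the opposite strand, and Ggnbp1 fell, with a log2 fold change of -0.44 at an adjusted p of 0.0257. Whether reads were counted by strand was not stated, so reads of these 2 genes cannot be told apart over the shared bases.

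Among the anti-apoptotic genes, Mcl1 (chr3:95658788-95663176) was the most abundant per length. The short-lived Mcl1 protein is set largely by its synthesis and by ubiquitin-dependent degradation. Mcl1 measured 131.8, 137.5 and 144.9 CPM in controls, against 137.0, 123.0 and 144.0 CPM after T + E2. The groups overlapped, with a log2 fold change of -0.04 (SE 0.09, adjusted p = 0.821) and a 95% interval from -0.25 to 0.18. A stretch of 245 bases in Gm20432 is 91.8% identical to Mcl1. Bcl2 (chr1:106538178-106714274), the founding member of the family, measured 20.9, 20.9 and 17.7 CPM in CON mice versus 18.7, 21.1 and 22.6 CPM in T + E2 mice. Its groups overlapped too, with a log2 fold change of 0.07 (SE 0.12, adjusted p = 0.716) and an interval from -0.21 to 0.35. For both genes, the interval leaves out a doubling or a halving of the group mean, while changes within it were not detectable with 3 mice in each group.

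Bcl2l1 (chr2:152780668-152831728), which encodes Bcl-xL, stood apart by its spread. It measured 63.5, 31.9 and 29.2 CPM in CON and 31.9, 34.6 and 39.0 CPM in T + E2 mice. CON 1 was the only mouse above 40 CPM, and the other 2 CON mice lay at or just under the level of the lowest T + E2 mouse. The log2 fold change was -0.24 (SE 0.28, adjusted p = 0.577) with all mice and 0.20 without CON 1, so that 1 mouse set its direction. Its 95% interval, from -0.88 to 0.40, was the widest of the 9 genes.

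The log2 fold changes of the 4 BH3-only genes differed in sign, negative for Bbc3 and Bcl2l11 and positive for Bid and Bad. Bcl2l11 (chr2:128126038-128162547), which encodes Bim, a BH3-only protein induced by the transcription factor FoxO3 when growth factors are lacking, measured 17.6, 14.5 and 18.2 CPM in controls, against 10.7, 8.59 and 13.7 CPM after T + E2. Every T + E2 mouse lay below every CON mouse. The log2 fold change of -0.61 (SE 0.19) narrowly missed the threshold in edgeR, with an adjusted p of 0.0542, and its interval ran from -1.04 to -0.18. Bcl2l11 passed in DESeq2, with an adjusted p of 0.0309, and in edgeR without T + E2 3, at 0.0252, while without both mice with seminal vesicle RNA it did not, at 0.116.

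Bid (chr6:120891930-120916853), which caspase-8 cleaves to link death receptors with mitochondria, measured 5.50, 5.32 and 4.97 CPM in CON mice versus 6.92, 7.61 and 7.34 CPM in T + E2 mice. The 3 T + E2 mice were all above the CON mice and the spread within each group was small, with SDs of 0.27 and 0.349 CPM. Its log2 fold change of 0.47 (SE 0.16) had an adjusted p of 0.0697 and rests on 79 to 125 counts a mouse. Bad (chr19:6941861-6951898), which growth factor signalling inactivates by phosphorylation, measured 29.2, 27.3 and 31.7 CPM in CON and 35.4, 34.4 and 30.6 CPM in T + E2 mice. T + E2 3 lay within the CON range, and the log2 fold change of 0.19 (SE 0.10) had an adjusted p of 0.235. Both genes share exon bases with a neighbour on the opposite strand, 17.7% of those of Bid with Bcl2l13 and 20.5% of those of Bad with Gpr137. Neither neighbour passed the test (Bcl2l13, adjusted p = 0.450, and Gpr137, adjusted p = 0.582).

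**Figure D2:**
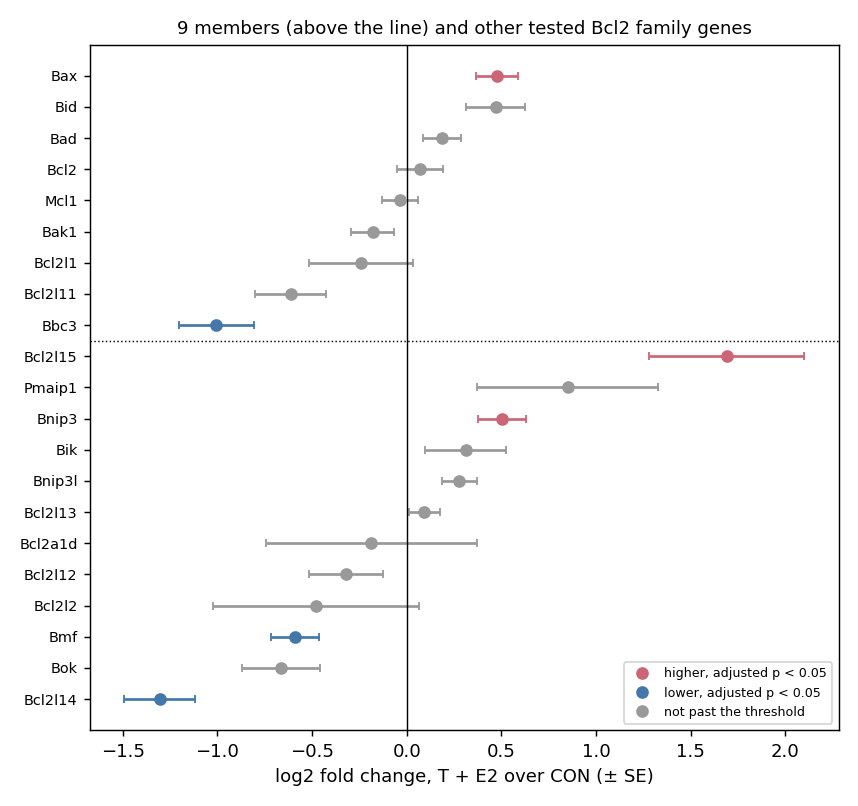
Log2 fold change, T + E2 over CON, with its SE (horizontal axis) for the 9 genes (above the dotted line) and the 12 other tested Bcl2 family genes (below it), coloured where the adjusted p in edgeR is under 0.05. Bax (0.48) and Bbc3 (-1.0) are the coloured genes among the 9, and Bcl2l15 and Bcl2l14 mark the ends of the lower panel at 1.69 and -1.31.

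FoxO proteins bind the letters GTAAACA and are known to act on Bcl2l11 and Bbc3, the pair of BH3-only genes with lower means after T + E2. The RefSeq start site windows of all 9 genes (build GRCm38.p6, from 250 bases before to 50 bases after each start) were searched on both strands. These letters occurred in 2 of the 15 windows of the 9 genes, 1 of Bcl2l11 and 1 of Bbc3 (13.3%), and in 3.65% of all 32851 windows. The stretches are shown because they are the places where these letters occur, 5′ to 3′ on the plus strand, which is the strand of both genes, with the letters or their reverse complement in capitals:
Bcl2l11: aagacactaggGTAAACAcgccggggtgg
Bbc3: tctggcgggttTGTTTACaaacaatgggg
The Bcl2l11 stretch lies at chr2:128125800-128125828, upstream of the gene, with the capitals starting 227 bases before the start site. The Bbc3 stretch lies at chr7:16310083-16310111, in an intron of GENCODE M21, with the capitals starting 167 bases before one of its 3 start sites. Foxo3 itself had a log2 fold change of -0.16 at an adjusted p of 0.406. The letters GGGCGG of the GC box occurred in 10 of the 15 windows (66.7%) and in 35.7% of all windows, and the 3 Bbc3 windows held 16 of them. The letters AGGTCA, part of oestrogen response elements, occurred in 1 of the 15 windows, of Bcl2l1 (6.67%), and in 16.3% of all windows. AGAACA, part of androgen response elements, occurred in 0 of the 15 and in 19% of all windows. The 4 motifs were picked with earlier results of these data known. Their matches describe the sequence and do not show binding, and none of the 4 contains another. Whether FoxO proteins had a part in the lower levels of Bcl2l11 and Bbc3 was not tested.

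Compared per length, as FPKM with the authors' gene lengths, Mcl1 and Bax had the highest levels of the 9 genes. In the CON group, Mcl1 had 34.7 ± 1.21 and Bax 31.9 ± 2.56 FPKM (SD, n = 3), levels whose mice overlapped. Bad followed at 8.30 ± 0.488 FPKM, then Bak1 at 4.45 ± 0.272 and Bcl2l1 at 3.54 ± 1.65 FPKM, and the Bcl2l1 mice overlapped with those of its neighbours Bak1 and Bbc3. Lower levels were found for Bbc3 (2.64 ± 0.421 FPKM), Bcl2 (2.00 ± 0.219 FPKM), Bcl2l11 (1.09 ± 0.119 FPKM) and Bid (0.975 ± 0.0647 FPKM), and the last 2 overlapped.

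In the T + E2 group, Bax came first with 43.2 ± 3.63 FPKM, ahead of Mcl1 with 33.0 ± 2.96 FPKM. Bbc3 moved to 1.28 ± 0.126 FPKM, beneath Bcl2 at 2.05 ± 0.254 FPKM and beside Bid at 1.32 ± 0.0937 FPKM, with which its mice overlapped, and Bcl2l11 was the lowest at 0.698 ± 0.175 FPKM. This order depends on gene length: the authors' FPKM use 869 bases for Bax and 11905 for Bcl2l1, whereas their exons in GENCODE M21 span 1576 and 4586 bases. With M21 lengths, Mcl1 remained first in both groups, at 40.9 and 38.9 FPKM, and Bax second, at 17.6 FPKM in the CON and 23.8 FPKM in the T + E2 group. Bad followed, at 11.6 and 12.9 FPKM, and Bcl2l1, at 9.19 and 7.58 FPKM, came before Bak1, at 8.13 and 6.98 FPKM, in both groups.

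Ratios within a mouse do not depend on library scaling, but their level depends on the gene lengths, and they are given as a description without a test. The ratio of Bax to Mcl1 in FPKM was 0.943, 0.844 and 0.970 in controls, against 1.29, 1.56 and 1.12 after T + E2. All 3 T + E2 mice had the higher ratio, with a log2 difference of 0.52 between the group means. With M21 lengths this ratio was below 1 in every mouse, from 0.395 to 0.454 in the CON and from 0.524 to 0.731 in the T + E2 mice. The ratio of Bax to Bcl2, often quoted as an apoptotic index, was 14.8, 13.8 and 19.8 in CON mice versus 23.6, 22.7 and 17.7 in T + E2 mice. CON 3 exceeded T + E2 3 in this ratio, so that the groups overlapped at a log2 difference of 0.41. With M21 lengths it ranged from 6.96 to 9.97 and from 8.93 to 11.9. The ratio of Bax to Bcl2l1 was 5.79, 10.7 and 14.2 in CON mice versus 16.4, 16.4 and 12.2 in T + E2 mice. These groups overlapped too, at a log2 difference of 0.63.

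Summed over classes, the effectors Bax and Bak1 to the 3 anti-apoptotic genes gave ratios of 0.876, 0.860 and 0.974 in CON and 1.25, 1.44 and 1.06 in T + E2 mice. The groups did not overlap. With M21 lengths the ratios lay lower, from 0.455 to 0.532 in the CON and from 0.544 to 0.717 in the T + E2 mice, again with no overlap. Bax made up most of the effector sum and Mcl1 most of the anti-apoptotic sum. This class ratio is therefore not independent of Bax to Mcl1, and Bak1, the other effector, had a log2 fold change of -0.18. The summed BH3-only genes to the summed anti-apoptotic genes gave 0.333, 0.305 and 0.332 in CON mice, against 0.345, 0.362 and 0.288 in T + E2 mice, which overlapped at a log2 difference of 0.03. Within the BH3-only class the balance differed: Bcl2l11 and Bbc3 to Bid and Bad gave 0.459, 0.381 and 0.368 in controls, against 0.192, 0.169 and 0.204 after T + E2. In this pair of sums, chosen after the values of the 4 genes were seen, the direction was fixed by the choice.

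**Figure D3:**
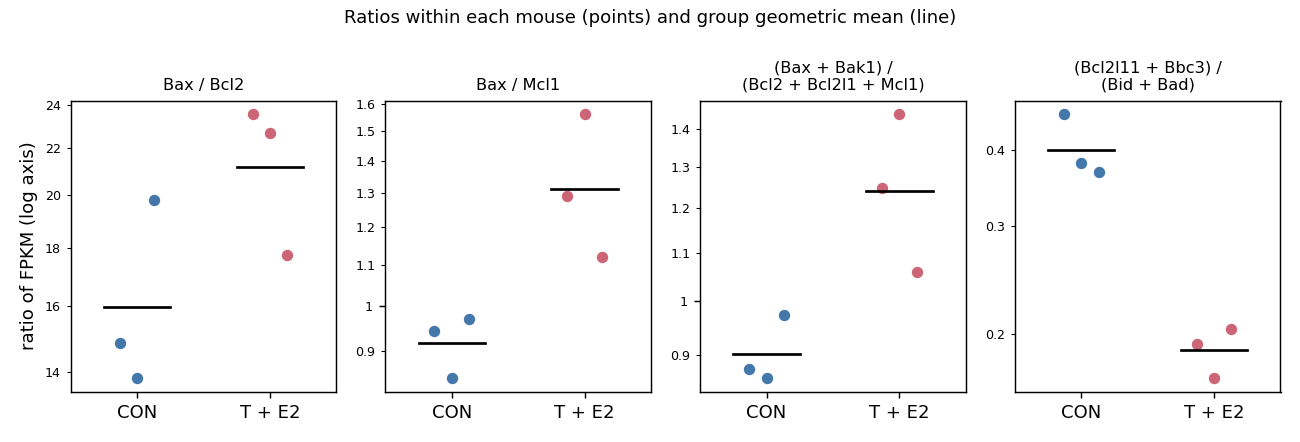
Ratios of FPKM as deposited, with the authors' gene lengths, within each CON and T + E2 mouse (points, vertical log axes with a different range in each panel), with the geometric mean of each group as a line. The group means are 16.0 and 21.2 for Bax to Bcl2, and 0.917 and 1.31 for Bax to Mcl1. They are 0.902 and 1.24 for effectors to anti-apoptotic genes, and 0.400 and 0.188 for Bcl2l11 and Bbc3 to Bid and Bad. Of the ratios shown, only Bax to Bcl2 overlaps between the groups.

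The rest of the family gave 2 higher and 2 lower genes among 12 tested of 16 listed (33.3%, beside 19.6% of all genes tested), with a median log2 fold change of -0.05. With 1 mouse left out, between 1 and 4 of the 12 were called. Bcl2l14, or Bcl-G, fell from 44.4, 49.5 and 55.6 CPM in the CON mice to 23.2, 22.8 and 14.4 CPM in the T + E2 mice. The groups were far apart, with a log2 fold change of -1.31 (SE 0.19, adjusted p = 0.00247). Bmf, a BH3-only gene whose protein is released from the cytoskeleton under stress, fell from 69.2 ± 6.87 to 46.0 ± 6.71 CPM (log2 fold change -0.59, adjusted p = 0.0159). Bnip3, which acts in mitophagy, rose from 41.6 ± 4.25 to 59.0 ± 7.68 CPM (log2 fold change 0.50, adjusted p = 0.0278). Bcl2l15 rose at a level near the detection limit, from 0.410 ± 0.198 to 1.34 ± 0.263 CPM (log2 fold change 1.69, adjusted p = 0.0244). Without both mice with seminal vesicle RNA only Bcl2l14 of these 4 passed. Part of the Bcl2l14 exon bases (14.1%) is shared with the antisense gene 4933406J09Rik, part of those of Bcl2l15 (21%) with Gm43064, and Bnip3 has pseudogenes up to 98.9% identical, so these counts carry some uncertainty. Bok, an effector-like gene, had non-overlapping groups and a log2 fold change of -0.66 at an adjusted p of 0.0561. Bcl2a1a, Bcl2a1b, Bcl2l10 and Hrk had at most 24 counts in any mouse and were not tested.

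Downstream of the mitochondria, 4 of 17 genes for mitochondrial factors, the apoptosome and caspases passed the test (23.5%, beside 19.6% of all genes tested), with a median log2 fold change of -0.04. Casp6, a caspase that cuts nuclear lamins, fell from 61.0, 45.7 and 61.7 CPM to 36.2, 32.6 and 29.8 CPM. Every T + E2 mouse lay below every CON mouse (log2 fold change -0.77, SE 0.14, adjusted p = 0.00701). Vdac1, a channel of the outer membrane, fell with a log2 fold change of -0.36 at an adjusted p of 0.0212. Without both mice with seminal vesicle RNA, Casp6 passed, at an adjusted p of 0.0154, whereas Vdac1 did not, at 0.104. The initiators of the mitochondrial route, Casp9 (log2 fold change -0.08) and Apaf1 (-0.04), did not pass, nor did Cycs, the cytochrome c gene (0.40, adjusted p = 0.433).

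**Figure D4:**
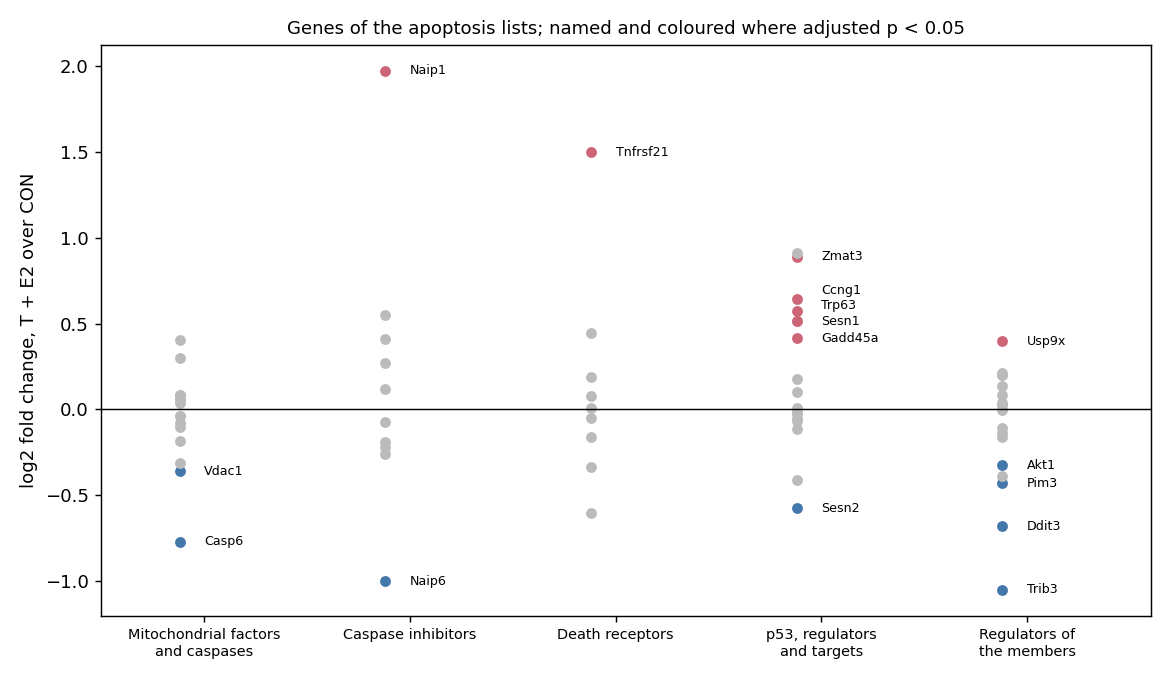
Log2 fold change, T + E2 over CON (vertical axis), of tested genes in 5 lists of the apoptosis pathway (columns of points), named and coloured where the adjusted p in edgeR is under 0.05; genes not reported here are left out. Casp6 (-0.77) and Vdac1 (-0.36) lie below 0, and 5 of the 6 named p53 genes lie above 0.

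The list of caspase inhibitors and related genes gave 1 higher and 1 lower gene among 10 tested (20%, beside 19.6% of all genes tested), with a median log2 fold change of 0.02. Both called genes were Naip genes. Xiap (log2 fold change 0.55, adjusted p = 0.374), Birc2 (-0.19, 0.189), Birc3 (-0.22, 0.111) and Cflar (-0.07, 0.567) did not pass, nor did the rest of the list. Naip1 rose from 0.474 ± 0.0852 to 1.89 ± 0.145 CPM and Naip6 fell from 158.2 ± 16.2 to 78.9 ± 27.1 CPM (adjusted p = 0.00291 and 0.0164). Transcripts of Naip1 and Naip6 are 90.9% identical over 4355 bases, and those of Naip6 and Naip5 96.9% over 4398 bases, so the split of reads among them is uncertain. Of 9 tested genes of the death receptor route, which reaches the mitochondria through Bid, 1 rose (11.1%), with a median of 0.01. Tnfrsf21, or death receptor 6, measured 120.7, 154.6 and 82.9 CPM in CON mice versus 336.5, 296.8 and 378.8 CPM in T + E2 mice. The groups were widely separated, with a log2 fold change of 1.5 (SE 0.21, adjusted p = 0.00255), and the call held when any single mouse or both mice with seminal vesicle RNA were left out. Casp8, which cuts Bid, had a log2 fold change of 0.30 at an adjusted p of 0.0604 with groups that did not overlap.

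The p53 pathway is known to switch on Bax and Bbc3. Among 17 tested of 18 listed genes of p53, its regulators and its targets, 5 rose and 1 fell, a share of 35.3% beside 19.6% of all genes tested, with a median log2 fold change of 0.10. Zmat3, an RNA-binding target of p53, measured 29.5, 29.1 and 31.4 CPM in CON and 60.9, 51.8 and 54.2 CPM in T + E2 mice. The lowest T + E2 mouse had well over the level of the highest CON mouse (log2 fold change 0.89, SE 0.10, adjusted p = 0.00066). Ccng1, the cyclin G1 gene, rose from 115.7 ± 4.18 to 180.9 ± 26.1 CPM (log2 fold change 0.64, adjusted p = 0.00752). Trp63, a relative of p53 that marks basal epithelial cells, rose from 25.8 ± 2.32 to 38.4 ± 3.98 CPM (log2 fold change 0.57, adjusted p = 0.0108). The basal cell keratins among the epithelial markers, Krt5 (0.21, adjusted p = 0.542) and Krt14 (-0.54, adjusted p = 0.274), did not pass. Sesn2, a stress-response gene, fell (log2 fold change -0.58, adjusted p = 0.0380). The remaining 2 that rose were Sesn1 and Gadd45a, named here only to complete the count. With 1 mouse left out, 3 to 6 of the 17 genes were called. Zmat3, Ccng1 and Trp63 were called in 6 of 6 such fits, Sesn1 in 3, and Gadd45a and Sesn2 in 1 each. Trp53 itself had a log2 fold change of -0.12 (adjusted p = 0.567), and its targets Cdkn1a and Mdm2 had 0.51 (adjusted p = 0.0853) and 0.01. Without both mice with seminal vesicle RNA, 2 of these 17 genes passed, Zmat3 among them, beside 8.65% of all genes tested in that fit. Bax and Bbc3, both p53 targets, thus changed in opposite directions beside these genes.

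Of 19 tested kinases, ubiquitin enzymes and transcription factors known to act on the 9 genes, 1 rose and 4 fell (26.3%, beside 19.6% of all genes tested), with a median log2 fold change of 0.00. With 1 mouse left out, 1 to 4 of the 19 were called, and with a replicate block 2. Ddit3, or Chop, a transcription factor of the endoplasmic reticulum stress response that is known to induce Bcl2l11 and Bbc3, measured 16.0, 20.2 and 17.2 CPM in controls, against 11.5, 10.8 and 10.9 CPM after T + E2. All 3 T + E2 mice were lower and close to one another (log2 fold change -0.68, SE 0.13, adjusted p = 0.00849). Its target Trib3 fell from 7.74 ± 2.03 to 3.73 ± 0.608 CPM (log2 fold change -1.05, adjusted p = 0.0197). Pim3, a kinase that phosphorylates Bad, fell (log2 fold change -0.43, adjusted p = 0.0361), and Usp9x, which removes ubiquitin from Mcl1, rose (0.40, adjusted p = 0.0326). Akt1, the remaining call, fell at an adjusted p of 0.0492. With 1 mouse left out, Akt1 was called in 0 of 6 fits (adjusted p up to 0.142), Pim3 in 1 and Usp9x in 2. None of the 19 passed in edgeR without both mice with seminal vesicle RNA. An unadjusted p under 0.05 was found for 3 of them (15.8%, beside 24.5% of all genes tested). DESeq2 called 5 of the 19, beside 3240 of all 15646 genes tested. In that edgeR fit Ddit3 had an adjusted p of 0.0764 and Trib3 of 0.0745. Over these 6 lists, 22 of 84 tested genes (26.2%, beside 19.6% of all genes) passed with all mice, 11 in each direction, and 9 (10.7%, beside 8.65%) passed without the 2 mice.

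The genes whose log2 CPM ran most like that of Bax over the 6 mice were Slc35d2 (Pearson r = 0.996), Ighv14-3 (0.996) and Polr3k (0.995). Ighv14-3, an immunoglobulin heavy chain segment, rose from a mean of 1.29 to 6.31 CPM. For Bbc3 they were Cog3 (0.993), Gxylt2 (0.992) and Nde1 (0.991), of which Gxylt2 fell from 23.4 to 9.81 CPM. These correlations over 6 mice contain the difference between the groups, and 18 genes exceeded 0.99 with Bax and 4 with Bbc3.

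Markers of cell types moved with the groups as well. Summed CPM of 10 epithelial markers ranged from 34815 to 47883.5 in the CON and from 7513.74 to 9395.62 in the T + E2 mice, carried by the secretory genes Pbsn and Tgm4, which fell (log2 fold changes of -3.29 and -2.91). Epcam, a membrane protein of epithelial cells, rose (1.18). Of the 10 epithelial markers 2 rose and 3 fell, and of 10 stromal markers, with sums of 5587 to 6408 and 5033 to 5433 CPM, 2 passed the test, Acta2 and Des, both lower. Sums of 11 lymphoid markers ranged from 39.6 to 129.9 and from 102.2 to 187.4 CPM, with 1 of 9 tested higher (Cd79b), and those of 9 myeloid markers from 145.0 to 213.8 and from 204.9 to 291.3 CPM, with Itgam higher and Kit lower of 8 tested. Sums of 5 endothelial markers ranged from 99.5 to 139.9 and from 142.1 to 168.6 CPM, with Vwf higher. These sums did not overlap between the groups, nor did the epithelial and stromal sums. The other endothelial markers overlapped and did not pass, with log2 fold changes of 0.42 for Pecam1, 0.25 for Tek, 0.02 for Kdr and -0.21 for Cdh5. Of the markers of other tissues, Upk1b and Upk2 of the urothelium rose among 10 tested. Genes of cycling cells had sums of 76.5 to 89.3 and 70.6 to 80.2 CPM, with Top2a lower among 6 tested. The defining T cell gene Cd3e stood at 20 counts or fewer in every mouse. The part of such shifts in the changes of Bax, Bbc3 and the other family genes was not tested.

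Within-group spread like that of Bcl2l1 was about as common in the apoptosis lists as in the whole table. Among 81 listed genes with a mean of at least 5 CPM in both groups, 5 (6.17%) had mice of one group that differed by more than 2-fold, beside 5.01% of 11230 such genes in all. Besides Bcl2l1 they were Bcl2l2, Xiap, Casp2 and Aen, named after their values were seen. Bcl2l2, which encodes the anti-apoptotic Bcl-w, measured 58.5, 55.3 and 148.6 CPM in CON and 37.1, 34.5 and 117.1 CPM in T + E2 mice. CON 3 and T + E2 3 were high and the other 4 mice low, a pattern that crosses the groups. The gene that ran most like Bcl2l1 was Pank2 (Pearson r = 0.991 over 6 mice), also chosen after the values were seen, with 39.8 CPM in CON 1 and 15 to 20.6 CPM in the other 5.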

How the data were processed

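RNA of prostate tissue was sequenced as paired-end TruSeq libraries from 3 CON and 3 T + E2 mice. The authors deposited a table of whole-number read counts per gene and of FPKM values for the same mice; the submitters' processing notes name TopHat, Bowtie2 and HTSeq, while versions, annotation and strand setting were not given in the sources used here. FPKM as deposited by the authors equal the counts scaled by library total and a gene length. Gene identifiers matched GENCODE M21 on GRCm38 for 34267 of 34745 genes, 80.8% of them with identical coordinates.

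Counts were filtered by filterByExpr (minimum count 10, minimum total 15), scaled by TMM and compared with edgeR 4.0.16 (quasi-likelihood test, Benjamini-Hochberg over 15580 genes) in R 4.3.3. A gene was called at an adjusted p under 0.05. SEs were derived from the log2 fold change and its F statistic, and 95% intervals use edgeR's total degrees of freedom. With 3 mice in each group the biological coefficient of variation of 18% limits what could be detected. On data simulated for this comparison with 15600 genes tested, the test found 182 of 200 changed genes (82 of the 100 changed by 1 on the log2 scale) and called 8 others falsely. No change smaller than 1 on the log2 scale was simulated, so these counts give no rate for changes as small as that of Bax. Every simulated gene had the same variation of 18%, and only genes above a minimum mean count were changed. Differences in spread between genes and seminal vesicle RNA in single mice were not simulated. The counts may therefore overstate how well the test performs on these data. Correlations used log2 CPM with a prior count of 2. Alternatives were RLE and total-count scaling, no filter, an FPKM filter, DESeq2 1.42.0, limma 3.58.1 on log2(FPKM + 0.1) and log2(FPKM + 1), a replicate block, protein-coding genes alone and leaving out each mouse; leaving out both mice with seminal vesicle RNA, in edgeR and in DESeq2, was added after the data were seen. Transcripts resembling those of a named gene were searched with BLAST+ 2.17.0+ (at least 90% identity over 100 bases), and start site sequences are RefSeq's, with all 9 genes matched. Figures used matplotlib 3.10.9 in Python 3.11.15.

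The 9 genes, the gene lists and the tests were chosen with earlier results of these data known. Named genes are the 9, up to 4 called genes with the largest change in each list, genes that define a list, the 3 genes most correlated with Bax and Bbc3, and genes that overlap or resemble one of the 9. Genes named outside this rule are marked in the text. Some listed genes are not reported here.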

Additional observations from a re-analysis of the deposited data

How the results depend on the processing

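With 3 mice in each group, single mice decided several values, and changes within the intervals given were not detectable. With all mice 3061 genes, 2 of the 9 and 22 pathway genes were called. Leaving out 1 mouse gave 1929 to 2741 genes called, 1 to 3 of the 9 and 10 to 21 pathway genes. Leaving out both mice with seminal vesicle RNA gave 1354, 0 and 9 in edgeR, and the fold threshold with all mice gave 1191 genes and 1 of the 9. Without both mice, 3 of the 9 had an unadjusted p under 0.05 in edgeR, beside 24.5% of all genes. DESeq2 called 3 of the 9 there, beside 3240 of all 15646 genes. At an unadjusted p under 0.05, 4 of the 9 passed with all mice (44.4%, beside 34.5% of all genes). Without 1 mouse each, log2 fold changes ranged from -0.0047 to 0.14 for Bcl2, -0.44 to 0.20 for Bcl2l1, -0.087 to 0.027 for Mcl1, 0.41 to 0.56 for Bax, -0.80 to -0.46 for Bcl2l11 (adjusted p 0.0252 to 0.150) and -1.09 to -0.87 for Bbc3 (adjusted p 0.0205 to 0.0374). Signs turned for Bcl2 and Mcl1, whose changes lay near 0, and for Bcl2l1. Without both mice, Mcl1 was at 0.022, Bax at 0.35 (adjusted p = 0.168) and Bbc3 at -1.08 (adjusted p = 0.0657). DESeq2 gave -0.61 for Bcl2l11 (adjusted p = 0.0309) and called 3 of the 9. With total-count scaling 47.1% of called genes were higher, against 52.9% with TMM. The cause of these changes was not tested. In the fits without both mice, the smaller number of mice and the loss of seminal vesicle RNA cannot be told apart. Nor can the loss of the fat and muscle RNA of CON 2.

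Over all tested genes, deviations of same-numbered mice from their group means correlated at -0.0516, 0.0275 and 0.0463. No CON mouse correlated best with the T + E2 mouse of its own number. Taken over all genes, these correlations cannot settle whether the mice were paired. Seminal vesicle RNA was found in both mice numbered 2, and Bcl2l2 was high in both mice numbered 3 (148.6 and 117.1 CPM). With the replicate number as a block, 2174 genes were called, Bax had a log2 fold change of 0.48 (adjusted p = 0.0653) and Bcl2l11 of -0.63 (adjusted p = 0.0354), and Bbc3 and Bcl2l11 were the 2 called of the 9.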
